A study of Mus musculus with 8 samples.

Results

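Glucocorticoid signalling in the mammary gland was followed through 10 genes: Nr3c1, which encodes the glucocorticoid receptor, and Fkbp5, Tsc22d3, Zbtb16, Sgk1, Klf9, Cdkn1a, Mt1, Mt2 and Hsd11b1, which are known targets of the receptor or act on its hormone. The genes were taken by symbol from the deposited count table, which lists 51789 genes, and all 10 were found and passed the filter on low counts. Fkbp5, a feedback inhibitor of the receptor, was lower in sEVHYP glands (29.6 ± 4.13 CPM, TMM-scaled counts, SD, n = 2) than in sEVNORM glands (66.0 ± 17.9 CPM, SD, n = 3) and sEVCTRL glands (48.9 ± 4.78 CPM, SD, n = 3), at an unadjusted P under 0.05 in both comparisons. The other 9 genes passed that threshold in none of the 3 comparisons in the edgeR fit of all libraries.

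The glands were whole abdominal mammary glands of female immunocompetent C57BL/6 mice that had each received a single injection of small extracellular vesicles (sEVs) weeks before collection. The vesicles came from AT3 cells, a mouse line of metastatic mammary adenocarcinoma, grown in normoxia (sEVNORM, 3 libraries) or hypoxia (sEVHYP, 2 libraries), and the control preparation came from medium that had held no cells (sEVCTRL, 3 libraries). All 8 libraries are polyA RNA of gland lysate, so epithelium, fat, stroma, immune cells and any attached muscle were sequenced together, and the age of the mice and a batch are not given in the sources used here. The comparison of sEVHYP with sEVNORM addresses the effect of the oxygen supply of the donor cells, and those with sEVCTRL the effect of the tumour vesicles; the comparisons share libraries and are not independent of each other.

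Glucocorticoids enter cells and bind a receptor that waits in the cytoplasm in a complex with heat shock proteins, co-chaperones and immunophilins. The bound receptor moves to the nucleus and binds glucocorticoid response elements, palindromes of paired half-sites, where it raises transcription of genes such as Fkbp5, Tsc22d3, Zbtb16 and Sgk1. In the mammary gland the hormone is best known for its part in lactogenic differentiation and in fat metabolism of the surrounding adipose tissue.

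Total counts were 18194996 to 24622569 per library, and 17858 genes were tested in edgeR. No gene had an adjusted P under 0.05 in any comparison, whereas DESeq2 on only the 2 groups compared gave 14 such genes for sEVHYP against sEVCTRL, 83 for sEVHYP against sEVNORM and 3 for sEVNORM against sEVCTRL. The edgeR threshold used below is an unadjusted P of 0.05, the one the study states, and it was passed by 438, 706 and 290 genes, respectively. At that unadjusted threshold DESeq2 passed 1.50% of 25790, 4.54% of 26293 and 1.14% of 26519 genes. These, called all genes where DESeq2 is used below, had no filter on low counts. The DESeq2 and edgeR shares thus differ in base, and low-count genes are part of the DESeq2 base. The edgeR counts are 2.45%, 3.95% and 1.62% of the genes tested, and counts of called list genes below stand beside these shares. Intervals of 95% are from the same fit, and the edgeR adjusted P of every member was 1.00 in every comparison. The glands differed in tissue content: the summed level of 10 skeletal muscle markers ran from 7.54 CPM in sEVNORM replicate 2 to 11238 CPM in sEVHYP replicate 2. In sEVNORM glands it was 7.54 to 2565 CPM, in sEVCTRL glands 584 to 7452 CPM and in sEVHYP glands 3943 and 11238 CPM. White adipocyte markers summed to 6546 to 12607 CPM and luminal epithelial markers to 898 to 2113 CPM, so the defining transcripts of a mammary fat pad were present in every library.

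**Figure D1:**
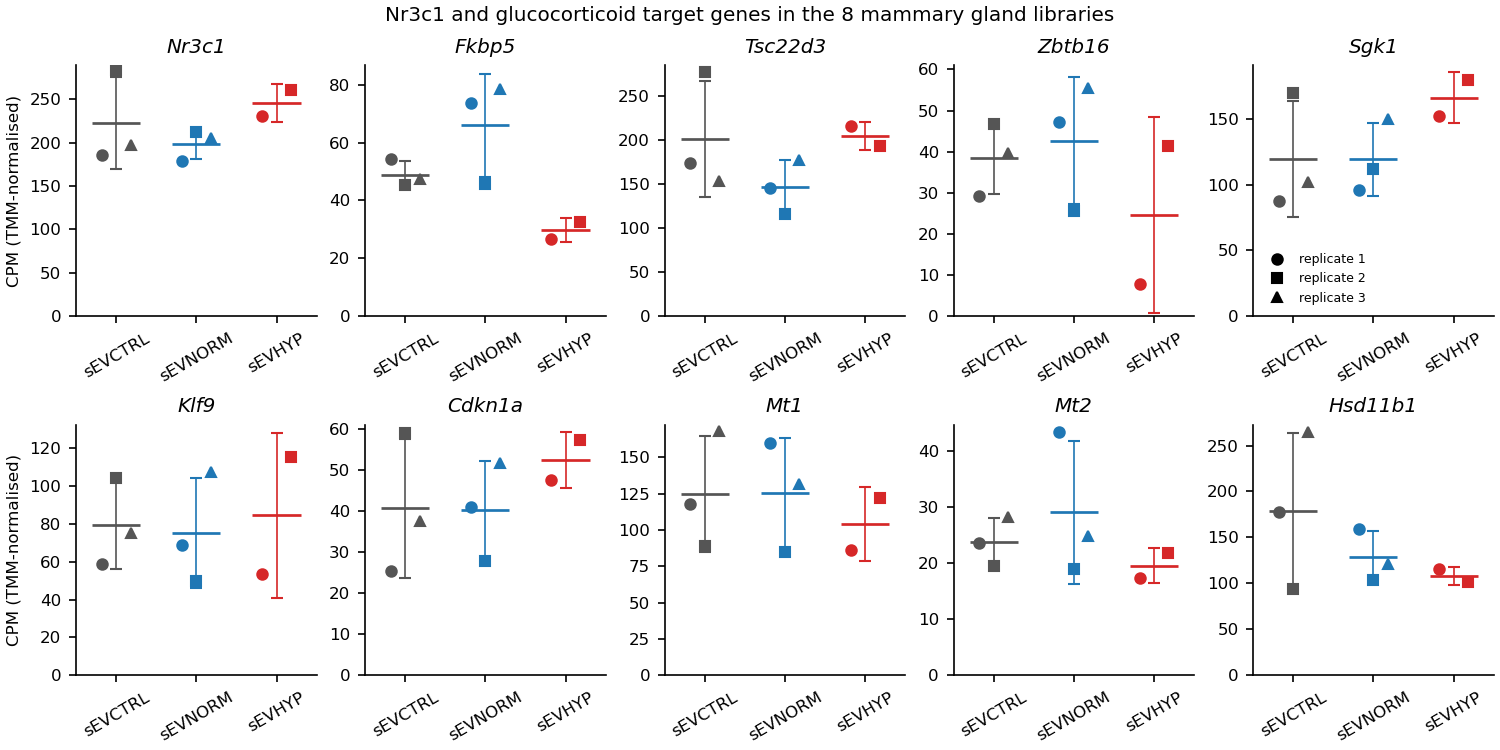
Level of each of the 10 genes in CPM (linear axis from 0) in every library, grouped by injected vesicle; symbols mark replicates, horizontal bars the group mean and whiskers 1 SD. Fkbp5 in the 2 sEVHYP libraries (26.7 and 32.5 CPM) lies below all other libraries, and Zbtb16 in the sEVHYP libraries is split between 7.70 and 41.4 CPM.

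The receptor transcript was abundant and varied least of the 10 genes. Nr3c1 (ENSMUSG00000024431, chromosome 18) was at 186, 283 and 197 CPM in sEVCTRL glands, 179, 212 and 205 CPM in sEVNORM glands and 230 and 261 CPM in sEVHYP glands. The highest library was sEVCTRL replicate 2, and both sEVHYP libraries lay above all sEVNORM libraries, while sEVHYP and sEVCTRL overlapped. The highest library held 1.58 times the level of the lowest, the smallest such ratio among the 10 genes. The log2 fold change of sEVHYP over sEVNORM was 0.31 (SE 0.21, 95% interval -0.16 to 0.78), and over sEVCTRL it was 0.14 (SE 0.21, interval -0.33 to 0.62). For sEVNORM over sEVCTRL it was -0.16 (SE 0.19, interval -0.59 to 0.26). A difference in Nr3c1 was thus not detectable with 2 and 3 libraries, and in whole tissue fewer cells of a type and less RNA per cell cannot be told apart.

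Fkbp5 encodes an immunophilin that binds the receptor complex and lowers its affinity for hormone, and its own transcription is among the most sensitive responses to glucocorticoid. Fkbp5 (ENSMUSG00000024222, chromosome 17, 28399094 to 28517527, minus strand, GRCm38) was at 54.3, 45.2 and 47.3 CPM in sEVCTRL glands, 73.8, 45.5 and 78.6 CPM in sEVNORM glands, and 26.7 and 32.5 CPM in sEVHYP glands. The underlying counts were 1069, 990 and 865, then 1835, 1027 and 1662, and 583 and 608. Both sEVHYP libraries were below all 6 others. Within sEVNORM, replicate 2 was close to the sEVCTRL glands and the other libraries were higher, so sEVNORM and sEVCTRL overlapped.

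Relative to sEVNORM, Fkbp5 was lower with sEVHYP by a log2 fold change of -1.16 (SE 0.25, 95% interval -1.71 to -0.60, edgeR adjusted P = 1.00). It ranked 14 by P among the 17858 genes, and 1 of the 10 members was called, beside 3.95% of all genes tested. With DESeq2 on only these 2 groups the adjusted P of Fkbp5 was 0.0202. An adjusted P under 0.05 was reached there by 0.500% of the genes with an adjusted P. Over the 15 alternative settings the edgeR and DESeq2 adjusted P ranged from 0.0202 to 1, and the log2 fold change from -1.38 to -1.01 with an unadjusted P under 0.05 in 15 of 15. Relative to sEVCTRL the log2 fold change was -0.72 (SE 0.24, interval -1.27 to -0.17, edgeR adjusted P = 1.00), again with 1 of 10 members called, beside 2.45% of all genes. DESeq2 on only the 2 groups compared also called Fkbp5 against sEVCTRL, beside 1.50% of all genes, and Fkbp5 and Tsc22d3 against sEVNORM, beside 4.54%. The edgeR call against sEVCTRL was lost without sEVHYP replicate 1, where the log2 fold change was -0.59.

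Between sEVNORM and sEVCTRL the log2 fold change of Fkbp5 was 0.43 (SE 0.21, interval -0.05 to 0.91), and 0 of 10 members were called by edgeR, beside 1.62% of all genes. By DESeq2 on these 2 groups 0 members passed an unadjusted P of 0.05 as well, beside 1.14% of all genes. Without sEVNORM replicate 2, the library almost without muscle markers, the Fkbp5 value was 0.64 and passed the threshold, and without sEVNORM replicate 3 it was 0.29. With the mean muscle marker level as a covariate it was 0.52 for sEVNORM over sEVCTRL, past the threshold, -0.86 for sEVHYP over sEVCTRL and -1.38 for sEVHYP over sEVNORM. No other gene of the count table that overlaps Fkbp5 had a count.

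**Figure D2:**
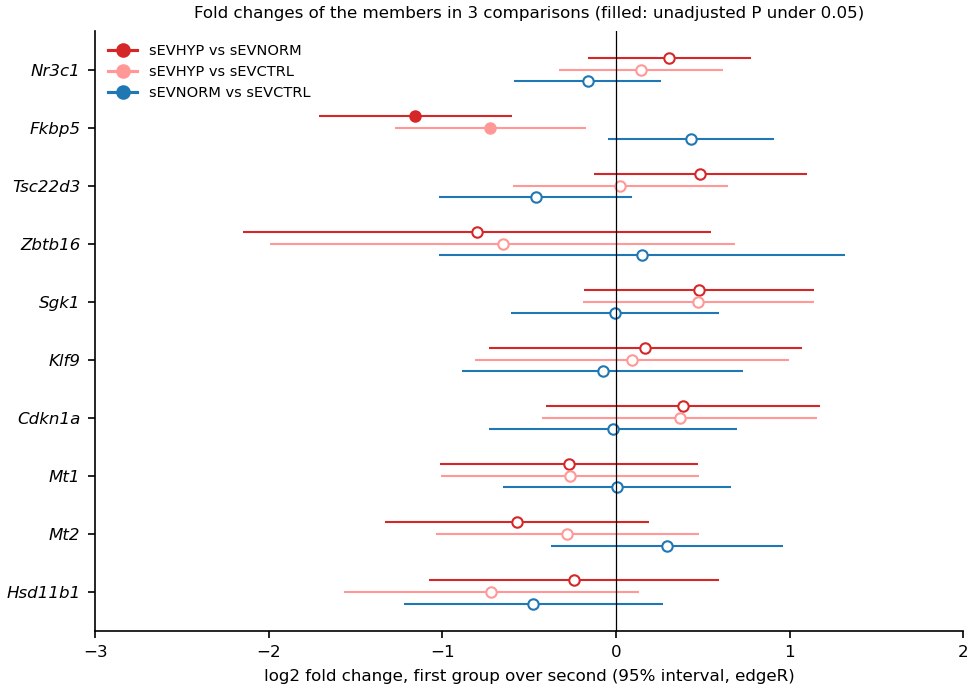
Log2 fold change of each gene in the 3 comparisons, with 95% intervals from edgeR; filled points passed an unadjusted P of 0.05. Fkbp5 in both comparisons with sEVHYP (-1.16 and -0.72) is the only gene with filled points, and the intervals of all other genes include 0.

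Tsc22d3, which encodes the anti-inflammatory leucine zipper protein GILZ, did not follow Fkbp5. Tsc22d3 (ENSMUSG00000031431, chromosome X, 140539528 to 140600659) was at 174, 277 and 154 CPM in sEVCTRL glands, 145, 116 and 178 CPM in sEVNORM glands and 217 and 193 CPM in sEVHYP glands. Both sEVHYP libraries were above all sEVNORM libraries and within the range of sEVCTRL. The log2 fold change over sEVNORM was 0.49 (SE 0.27, interval -0.13 to 1.10), and over sEVCTRL 0.02 (SE 0.27, interval -0.60 to 0.64). On only the sEVHYP and sEVNORM libraries Tsc22d3 passed the threshold, with edgeR (0.48) and with DESeq2 (0.49). On those libraries 1056 of 17403 genes passed by edgeR and 1195 of 26293 by DESeq2. The value for sEVNORM over sEVCTRL was -0.46 (SE 0.25, interval -1.02 to 0.09). Without sEVCTRL replicate 3 it was -0.62 and passed the threshold, and without sEVCTRL replicate 2 it was -0.16.

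Zbtb16 encodes a zinc finger transcription repressor whose transcript is strongly induced by glucocorticoid in many cell types. Zbtb16 (ENSMUSG00000066687, chromosome 9, 48654297 to 48836222) was at 29.1, 46.7 and 39.6 CPM in sEVCTRL glands, 47.1, 25.5 and 55.4 CPM in sEVNORM glands, and 7.70 and 41.4 CPM in sEVHYP glands. The 2 sEVHYP glands disagreed: replicate 1, with 168 counts, was the lowest of the 8 libraries, and replicate 2, with 773 counts, lay in the middle of the others. The highest library held 7.20 times the level of the lowest, the widest range of the 10 genes. sEVHYP differed by a log2 fold change of -0.80 from sEVNORM (SE 0.60, interval -2.15 to 0.54) and of -0.65 from sEVCTRL (SE 0.59, interval -1.99 to 0.69). These values rest on sEVHYP replicate 1, since without it they were -0.04 and 0.11, and without replicate 2 they were -2.48 and -2.34, both past the threshold. In fits with 1 sEVHYP library, that library is assumed to vary like the other groups.

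Sgk1 encodes a serine/threonine kinase that controls ion transport and cell survival, and Klf9 a zinc finger transcription factor; both are direct receptor targets. Sgk1 (ENSMUSG00000019970, chromosome 10, 21882184 to 21999903) was at 87.5, 170 and 102 CPM in sEVCTRL glands, 95.9, 112 and 150 CPM in sEVNORM glands and 153 and 180 CPM in sEVHYP glands. Both sEVHYP libraries were above all sEVNORM libraries, by a narrow margin, and sEVCTRL replicate 2 lay between them. Its log2 fold change was 0.48 over sEVNORM (SE 0.29, interval -0.19 to 1.14) and 0.47 over sEVCTRL (SE 0.29, interval -0.19 to 1.14). Without sEVCTRL replicate 2 these were 0.48 and 0.82, both past the threshold, and without sEVCTRL replicate 1 the value over sEVCTRL was 0.29. Calls over all genes rose as well without sEVCTRL replicate 2, to 986 over sEVNORM and 1472 over sEVCTRL, of 17701 tested. In the fit of all libraries they were 706 and 438 of 17858.

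Sgk1 is the member whose listed start sites include a receptor motif in full, which is why its sequence is shown. In RefSeq promoter windows of GRCm38.p6 (250 bases before to 50 after each annotated start) 8 of the 10 members matched by symbol, with 16 windows, and Nr3c1 and Zbtb16 did not. The glucocorticoid response element was searched on both strands as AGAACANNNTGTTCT, and its half-site as AGAACA or TGTTCT. The full palindrome was found in 3 of 32851 mouse windows (0.00913%), and the half-site, which the palindrome contains, in 19% of them. The 250 bases before the fifth Sgk1 start (chr10:21993640-21993889, plus strand, within the annotated span of the gene) read as follows, with half-sites in capitals.
Sgk1: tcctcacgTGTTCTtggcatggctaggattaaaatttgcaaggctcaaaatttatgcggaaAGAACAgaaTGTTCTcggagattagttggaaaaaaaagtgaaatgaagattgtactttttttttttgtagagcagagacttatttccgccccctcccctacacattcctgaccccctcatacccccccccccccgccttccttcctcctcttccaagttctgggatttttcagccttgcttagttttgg
The palindrome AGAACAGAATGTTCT began 189 bases before that start, and a further half-site 242 bases before it. Half-sites were also found in the windows of 2 other Sgk1 starts and in 1 window of Tsc22d3, and in no window of the other members. A match is a run of letters and not a measured binding site, and a window without it says only that these letters are not in those 300 bases.

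Klf9 (ENSMUSG00000033863, chromosome 19, 23141226 to 23168134) was at 58.6, 105 and 75.1 CPM in sEVCTRL glands, 68.7, 50.0 and 107 CPM in sEVNORM glands and 53.7 and 115 CPM in sEVHYP glands. Each group held both high and low libraries, and the groups overlapped. The log2 fold change of sEVHYP was 0.17 over sEVNORM (SE 0.40, interval -0.73 to 1.07) and 0.09 over sEVCTRL (SE 0.40, interval -0.81 to 0.99), intervals that leave room for changes of up to about 1 on the log2 scale either way.

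Cdkn1a encodes a cyclin-dependent kinase inhibitor that is a target of p53 as well as of the glucocorticoid receptor. Cdkn1a (ENSMUSG00000023067, chromosome 17, 29090976 to 29100727) was at 25.5, 59.1 and 37.5 CPM in sEVCTRL glands, 41.0, 27.8 and 51.8 CPM in sEVNORM glands and 47.6 and 57.3 CPM in sEVHYP glands. The sEVHYP libraries were in the upper part of the range, and both other groups overlapped with them. For sEVHYP the log2 fold change was 0.38 over sEVNORM (SE 0.35, interval -0.41 to 1.17) and 0.37 over sEVCTRL (SE 0.35, interval -0.43 to 1.16). The value over sEVCTRL was 0.74, past the threshold, without sEVCTRL replicate 2 and 0.12 without sEVCTRL replicate 1. Without sEVCTRL replicate 2, 1472 of 17701 genes passed over sEVCTRL, against 438 of 17858 in the fit of all libraries. Of 10 p53 target genes, 1 was called by edgeR for sEVHYP over sEVNORM, beside 3.95% of all genes: Phlda3, which encodes an inhibitor of Akt. Phlda3 was at 41.1 and 24.8 CPM with sEVHYP and at 19.3, 12.8 and 13.1 CPM with sEVNORM, a log2 fold change of 1.13 (95% interval 0.28 to 1.99, edgeR adjusted P = 1.00) that was 0.72, no longer past the threshold, without sEVHYP replicate 1. In sEVCTRL glands Phlda3 was at 23.6, 17.2 and 42.1 CPM, so sEVHYP and sEVCTRL overlapped, with a log2 fold change of 0.26 (95% interval -0.60 to 1.12). For sEVNORM over sEVCTRL its value was -0.87 (edgeR adjusted P = 1.00), a call lost without sEVCTRL replicate 3, sEVNORM replicate 2 or sEVNORM replicate 3. The other p53 targets with the highest levels, Ccng1, Trp53inp1, Btg2 and Mdm2, were not called by edgeR in any of the 3 comparisons. Of these, DESeq2 called Ccng1 for sEVHYP over sEVNORM, beside 4.54% of all genes.

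The metallothioneins Mt1 and Mt2 are small cysteine-rich proteins that bind zinc and copper, and their genes respond to metals and to glucocorticoid. Mt1 (ENSMUSG00000031765, chromosome 8, 94179082 to 94180327) was at 118, 89.0 and 168 CPM in sEVCTRL glands, 160, 84.6 and 132 CPM in sEVNORM glands and 85.9 and 122 CPM in sEVHYP glands. Mt2 (ENSMUSG00000031762, chromosome 8, 94172664 to 94173568) was at 23.6, 19.5 and 28.2 CPM, then 43.4, 19.0 and 24.8 CPM, and 17.3 and 21.8 CPM. Both genes were low in sEVCTRL replicate 2, sEVNORM replicate 2 and sEVHYP replicate 1, a library of each group, and the groups overlapped. For sEVHYP over sEVNORM the log2 fold change was -0.27 for Mt1 (SE 0.33, interval -1.01 to 0.47) and -0.57 for Mt2 (SE 0.34, interval -1.33 to 0.19). Without sEVNORM replicate 2 the Mt2 value was -0.80 and passed the threshold, and without sEVNORM replicate 1 it was -0.16. Against sEVCTRL it was -0.27 for Mt1 (SE 0.33) and -0.28 for Mt2 (SE 0.33).

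The adjacent metallothionein genes had like profiles over the 8 libraries (Pearson r of log2 CPM 0.86), and their upstream sequences are shown for that reason. The core of the metal response element was searched on both strands as TGCACNC or TGCGCNC, which 25.7% of all windows hold; it was found 3 times in the Mt1 window and 4 times in the Mt2 window. The 250 bases before the start of Mt1 (chr8:94178839-94179088) and of Mt2 (chr8:94172368-94172617), both on the plus strand, have the matches in capitals.
Mt1: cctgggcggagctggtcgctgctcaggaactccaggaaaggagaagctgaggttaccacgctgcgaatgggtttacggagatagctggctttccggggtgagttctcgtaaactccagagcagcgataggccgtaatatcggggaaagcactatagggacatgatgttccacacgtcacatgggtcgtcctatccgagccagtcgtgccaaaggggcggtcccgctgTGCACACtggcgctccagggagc
Mt2: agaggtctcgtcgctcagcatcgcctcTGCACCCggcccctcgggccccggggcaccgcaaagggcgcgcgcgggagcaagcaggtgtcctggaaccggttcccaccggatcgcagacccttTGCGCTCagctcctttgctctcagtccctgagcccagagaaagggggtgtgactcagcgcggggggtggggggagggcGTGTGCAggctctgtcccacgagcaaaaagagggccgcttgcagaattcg
In Mt1 this stretch holds the match 23 bases before the start, and those at 2 and 20 bases after it are not printed. In Mt2 the stretch holds matches 223, 128 and 50 bases before the start, and the match 4 bases after it is not printed. None of the windows of the other members held more than 1 match. Tested besides were 5 other metal response genes, among them Mtf1, the metal-sensing transcription factor, and Slc30a1, a zinc exporter. Of these, 0 were called by edgeR in each of the 3 comparisons, beside 1.62% to 3.95% of all genes. DESeq2 called 1, Gclc, for sEVHYP over sEVNORM, beside 4.54%.

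Hsd11b1 acts before the receptor: it encodes the reductase that converts inactive glucocorticoid into the active hormone inside cells, and it is abundant in fat and liver. Hsd11b1 (ENSMUSG00000016194, chromosome 1, 193221634 to 193264075, minus strand) was at 177, 93.6 and 264 CPM in sEVCTRL glands, 160, 104 and 121 CPM in sEVNORM glands and 115 and 101 CPM in sEVHYP glands. The sEVCTRL glands held both the highest and the lowest of the 8 libraries, and all groups overlapped. The log2 fold change of sEVHYP was -0.72 over sEVCTRL (SE 0.38, interval -1.57 to 0.13) and -0.24 over sEVNORM (SE 0.37, interval -1.08 to 0.59). The spread of the sEVCTRL libraries decided the first value: without replicate 2 of that group it was -1.03 and passed the threshold, and without replicate 3 it was -0.32. For sEVNORM over sEVCTRL the log2 fold change was -0.48 (SE 0.33, interval -1.22 to 0.27). It was -0.78, past the threshold, without sEVCTRL replicate 2 and -0.08 without sEVCTRL replicate 3. Without sEVCTRL replicate 2, 1472 of 17701 genes passed for sEVHYP over sEVCTRL and 1018 for sEVNORM over sEVCTRL. In the fit of all libraries these were 438 and 290 of 17858. Lamb3 and the predicted genes Gm38118 and 4930570N18Rik overlap Hsd11b1, with 1025, 140 and 130 counts over all libraries against 23649 for Hsd11b1.

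Compared per kilobase of exon, where genes can be set side by side, the median levels over the 8 libraries ran from Mt1 to Fkbp5. Mt1 had a median of 96.1 CPM per kb (67.9 to 135), and its lowest library was above every library of the other genes except the highest of Mt2 (73.9). Tsc22d3 (40.5 CPM per kb, 26.7 to 63.9) and Mt2 (38.7, 29.5 to 73.9) came next, followed by Hsd11b1 (27.8, 22.0 to 62.2), Nr3c1 (27.1, 23.3 to 36.9) and Sgk1 (26.8, 17.8 to 36.7), and neighbours in this order overlapped in their ranges. Klf9 (14.9, 10.4 to 24.0) and Cdkn1a (12.5, 7.18 to 16.6) lay lower, and Zbtb16 (7.67, 1.46 to 10.5) and Fkbp5 (4.90, 2.82 to 8.30) lowest, and each gene's range again overlapped with the next. The length is the union of all listed exons, which for Mt1 spans the whole gene at 1.25 kb and so understates its level.

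As a group, the members did not move one way. For sEVHYP over sEVNORM 5 had a positive and 5 a negative log2 fold change, with a median of -0.04 beside -0.02 over all genes tested. Over sEVCTRL the same split was 5 and 5 (median -0.12, all genes -0.02), and for sEVNORM over sEVCTRL it was 4 and 6 (median -0.01, all genes 0.00). In the last comparison the members without a value above lay between -0.08 (Klf9) and 0.29 (Mt2), with SEs of 0.27 to 0.52. The groups did not overlap in 4 of 10 members for sEVHYP against sEVNORM (Fkbp5 lower, and Nr3c1, Tsc22d3 and Sgk1 higher), beside 22.8% of all genes. They did not overlap in 1 of 10 for sEVHYP against sEVCTRL (Fkbp5), beside 12.8%, and in 0 of 10 for sEVNORM against sEVCTRL, beside 4.86%.

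**Figure D3:**
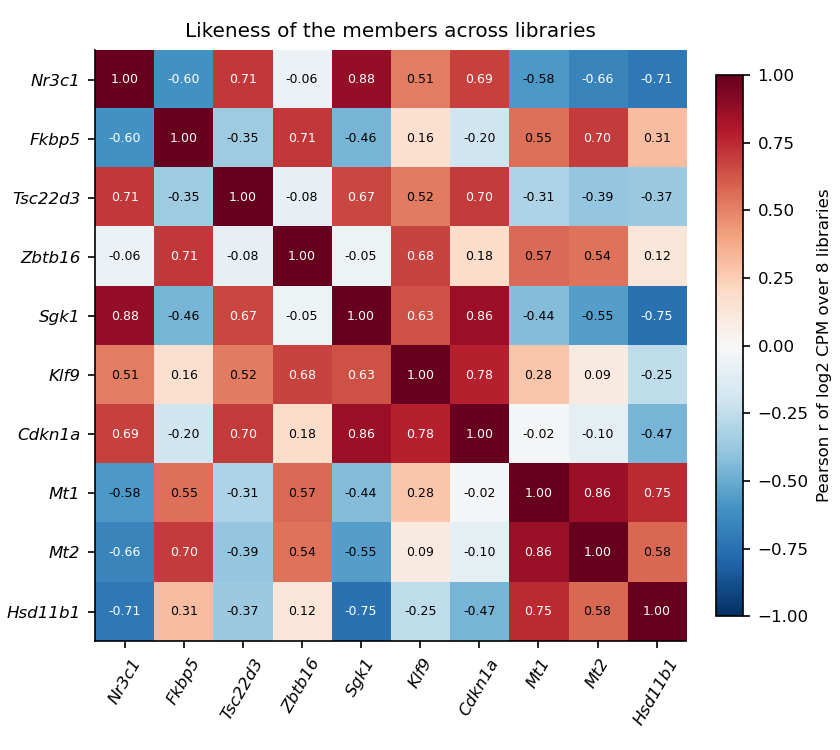
Pearson correlation of log2 CPM over the 8 libraries for each pair of the 10 genes (colour scale from -1 to 1, value in each cell). Nr3c1, Tsc22d3, Sgk1 and Cdkn1a form a block of positive values, Mt1 and Mt2 reach 0.86, and Fkbp5 is at -0.35 with Tsc22d3 and 0.71 with Zbtb16.

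Across libraries the members fell into different profiles, described here over 8 points that share group, tissue content and depth. The 45 pairwise correlations of log2 CPM ran from -0.75 to 0.88 with a median of 0.16. The highest were Nr3c1 with Sgk1 (0.88), Mt1 with Mt2 (0.86) and Sgk1 with Cdkn1a (0.86), and the lowest was Sgk1 with Hsd11b1 (-0.75). Fkbp5 followed Zbtb16 and the metallothioneins more closely than it followed Tsc22d3 or Sgk1. Its correlation was 0.71 with Zbtb16, 0.70 with Mt2 and 0.55 with Mt1, and it was -0.35 with Tsc22d3, -0.46 with Sgk1 and -0.60 with Nr3c1. Profiles were also compared with 14972 other tested genes, leaving out predicted genes (Gm and Rik names) and genes without a symbol. Of these, the profile most like that of Fkbp5 was Alox12e (0.97, at a mean of 0.411 CPM). Ifngr1, a subunit of the interferon gamma receptor (0.93), and Zfp941 (0.92) followed. The same measure was taken for Nr3c1, Tsc22d3, Zbtb16 and Mt2. For Nr3c1 the nearest were Arhgap6 (0.97), Aaed1 (0.96) and Zfp982 (0.96), and for Tsc22d3 they were Adi1 (0.96), Rtl3 (0.96) and Rhob (0.95). For Zbtb16 the nearest were Ces1f (0.97), Usp35 (0.96) and Zfp791 (0.96), and for Mt2 they were Nol6 (0.95), Tubg2 (0.94) and Thtpa (0.94). These values are among the highest of the 14972 and carry no test. Besides Alox12e, other genes named here were low, with means of 0.559 CPM for Zfp941, 0.744 for Tubg2, 2.07 for Rtl3 and 2.32 for Zfp791.

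Tissue content moved with several members. The mean log2 level of the skeletal muscle markers had a correlation of 0.82 with Cdkn1a and 0.78 with Tsc22d3, against -0.17 with Fkbp5. For 8 of the 10 muscle markers both sEVHYP libraries were above all sEVNORM libraries, beside 22.8% of all genes that did not overlap in either direction. Of the 10, 0 were called by edgeR or DESeq2, and Myh2 alone had a count of 0, in sEVNORM replicate 2. Mt1 was at 0.81 with the white adipocyte markers. Cdkn1a was at 0.93 with the fibroblast and 0.92 with the basal epithelial markers, and Klf9 at 0.91 with the endothelial markers. With the B cell markers Klf9 was at -0.93 and Cdkn1a at -0.88, and with the T cell markers at -0.86 and -0.83. B cell markers summed to 635 CPM in sEVHYP replicate 2 and to 2150 CPM in sEVNORM replicate 2. All 6 T cell and 5 B cell markers had a negative log2 fold change for sEVHYP in both comparisons, and 0 were called by edgeR or DESeq2. Neutrophil markers summed to 28.2 to 123 CPM in sEVNORM glands, 6.48 to 56.4 CPM in sEVCTRL glands and 15.5 and 6.16 CPM in sEVHYP glands. Of the 4 tested in edgeR, 3 (S100a8, S100a9 and Retnlg) were lower with sEVHYP than with sEVNORM at an unadjusted P under 0.05. Of all genes, 3.95% passed that threshold. Tsc22d3 had a correlation of -0.90 with the neutrophil markers and Fkbp5 of 0.44. Fkbp5 had larger correlations with other lists, 0.63 with the keratinocyte, 0.56 with the macrophage and -0.62 with the brown adipocyte markers, and -0.62 with the p53 targets. Keratinocyte markers summed to 62.1 CPM in sEVNORM replicate 3, also the library with most Fkbp5, and to 8.15 to 12.8 CPM in all other libraries. The correlation with them used the 3 of the 6 that were tested and rests on that library. Brown adipocyte markers summed to 32.9 and 58.0 CPM in sEVHYP glands, 14.9 to 24.9 CPM in sEVNORM glands and 16.5 to 29.5 CPM in sEVCTRL glands, and 2 of the 6 had a count of 0 in at least 1 library. All 5 that were tested had a positive log2 fold change for sEVHYP in both comparisons. By edgeR 2 were called over sEVCTRL (Ucp1 and Dio2), beside 2.45% of all genes, and 1 over sEVNORM (Cox7a1), beside 3.95%. DESeq2 called 3 over sEVCTRL (Ucp1, Dio2 and Cox7a1), 1 over sEVNORM (Cox7a1) and 2 for sEVNORM over sEVCTRL (Ucp1 and Dio2). The DESeq2 shares of all genes were 1.50%, 4.54% and 1.14%. These genes were named after their values were seen. Ucp1 had 7 and 115 counts with sEVHYP, 4, 0 and 0 with sEVCTRL and 1, 46 and 7 with sEVNORM. Cox7a1 was at 9.53 and 15.1 CPM with sEVHYP, 5.63, 2.22 and 4.64 CPM with sEVNORM and 1.57, 9.62 and 3.83 CPM with sEVCTRL. With the muscle score in the model the log2 fold changes of sEVHYP over sEVNORM became 0.19 for Tsc22d3 and -0.10 for Cdkn1a, and the part of the other cell types in the results was not tested.

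**Figure D4:**
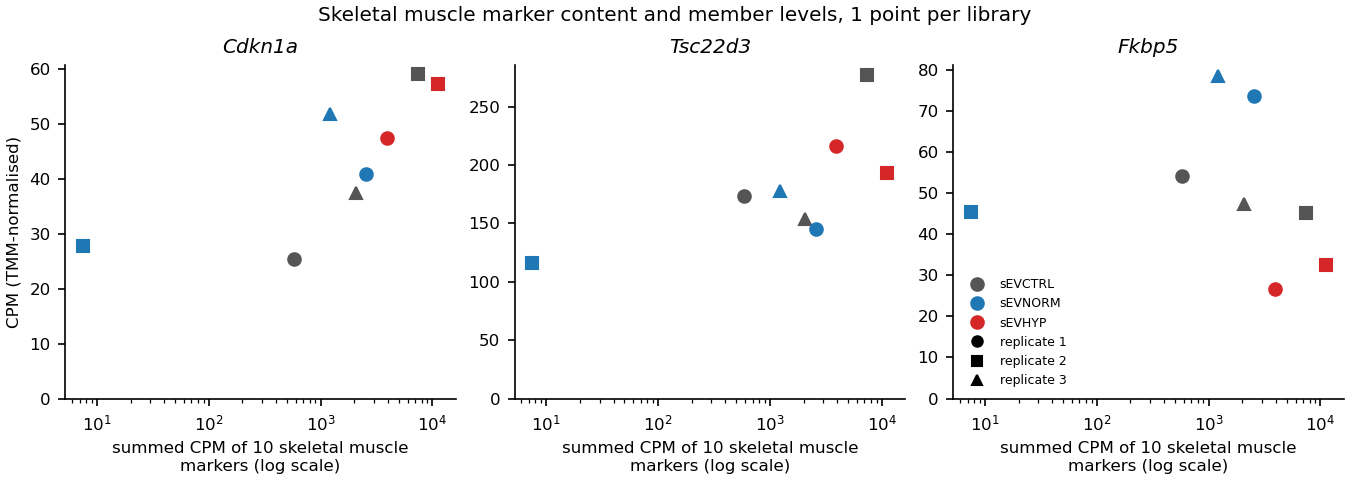
Levels of Cdkn1a, Tsc22d3 and Fkbp5 (CPM, linear axis from 0) against the summed level of 10 skeletal muscle markers (CPM, log axis), with 1 point per library, coloured by group and with a symbol per replicate. Cdkn1a and Tsc22d3 are lower at the left, where sEVNORM replicate 2 has 7.54 CPM of markers, and the 2 sEVHYP libraries lie at the right, where sEVCTRL replicate 2, with 7452 CPM of markers, lies between them and has more Fkbp5 (45.2 CPM) than either.

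Other genes known to be induced by glucocorticoid, from a list of 26 that were all tested, were split in direction as well. Of the 26, 0 were called by edgeR for sEVHYP over sEVCTRL, 1 higher and 1 lower for sEVHYP over sEVNORM, and 2 lower for sEVNORM over sEVCTRL, with medians of -0.08, 0.06 and -0.13. The shares of all genes called were 2.45%, 3.95% and 1.62%. DESeq2 on only the 2 groups compared called 1 (Rasd1), 4 (Ddit4, Mertk, Dusp1 and Cebpd) and 2 (Ddit4 and Arrdc2), beside 1.50%, 4.54% and 1.14% of all genes. Over the libraries, the mean log2 level of the 26 had a correlation of 0.90 with Klf9, 0.85 with Cdkn1a and 0.65 with Tsc22d3. It was 0.09 with Fkbp5 and -0.18 with Hsd11b1, and from 0.22 (Mt2) to 0.57 (Sgk1) with the remaining members. Ddit4, an inhibitor of mTOR signalling that hypoxia also induces, was at 24.3 and 21.4 CPM with sEVHYP, at 8.29, 8.64 and 13.0 CPM with sEVNORM and at 13.6, 23.6 and 12.2 CPM with sEVCTRL. Both sEVHYP libraries were above all sEVNORM libraries, with a log2 fold change of 1.20 (SE 0.31, 95% interval 0.49 to 1.90, edgeR adjusted P = 1.00), and it kept an unadjusted P under 0.05 in 15 of 15 alternatives. With DESeq2 on only these 2 groups the adjusted P of Ddit4 was 0.0101, and over the alternatives the edgeR and DESeq2 adjusted P ranged from 0.0101 to 1.

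Mertk, a receptor tyrosine kinase for the uptake of dying cells, went the other way, at 22.4 and 26.7 CPM with sEVHYP against 40.0, 33.0 and 59.7 CPM with sEVNORM (log2 fold change -0.85, SE 0.26, edgeR adjusted P = 1.00). Without sEVHYP replicate 1 its value was -0.73 and no longer passed. The 2 genes lower with sEVNORM than with sEVCTRL were Ddit4 (-0.73, SE 0.29, edgeR adjusted P = 1.00) and Arrdc2, an arrestin domain gene (-0.70, SE 0.27, edgeR adjusted P = 1.00). Each of these 2 calls was lost without sEVNORM replicate 2 or sEVCTRL replicate 2 and with the muscle score in the model, that of Ddit4 also without sEVNORM replicate 1 and with the replicate block, and that of Arrdc2 without sEVCTRL replicate 3. Without sEVCTRL replicate 2 the Ddit4 value was -0.37. Glul, Sult1a1, Pik3r1 and Lpin1, the most abundant of the other genes on the list, were not called in any comparison.

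**Figure D5:**
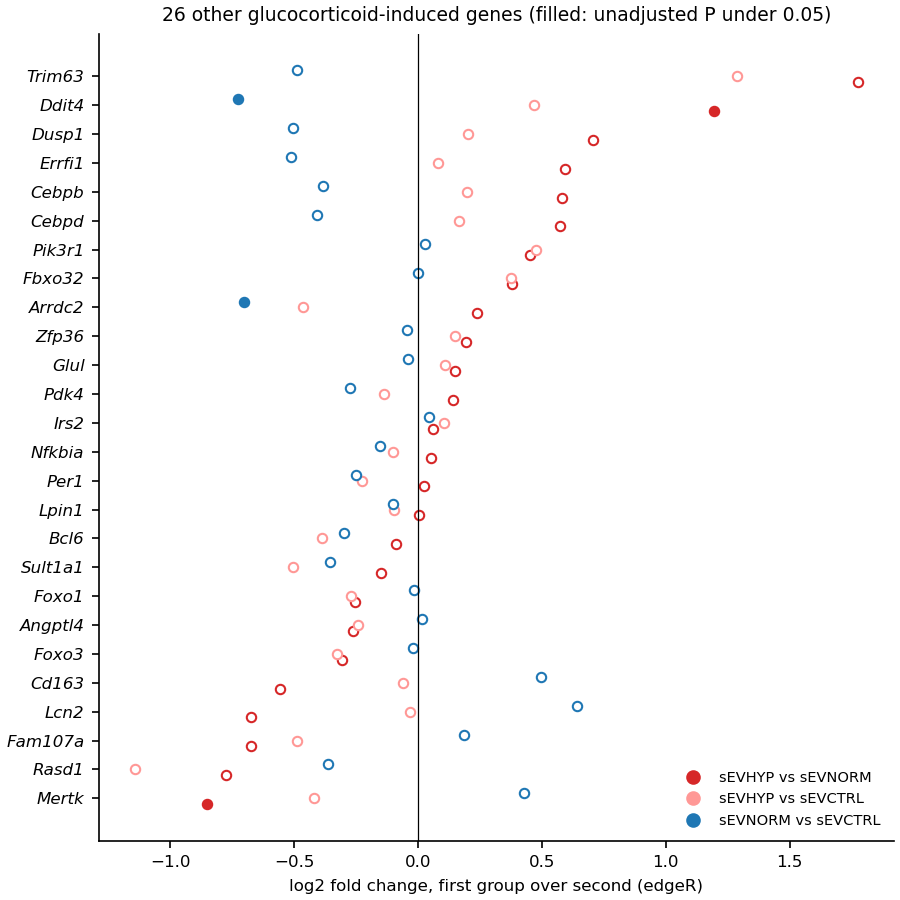
Log2 fold changes of 26 other glucocorticoid-induced genes in the 3 comparisons, ordered by the value for sEVHYP over sEVNORM; filled points passed an unadjusted P of 0.05 in edgeR. Ddit4 (1.20) and Mertk (-0.85) are the filled points for sEVHYP over sEVNORM, and the list spreads to both sides of 0.

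The partners of the receptor showed no called change. Of 13 tested genes for chaperones, coregulators and hormone supply, 0 were called by edgeR or DESeq2 in each of the 3 comparisons, with medians of -0.01 (sEVHYP over sEVCTRL), 0.05 (sEVHYP over sEVNORM) and -0.09 (sEVNORM over sEVCTRL). The heat shock proteins that hold the receptor ready for hormone were abundant in every library: Hspa8 at 1204 to 1733 CPM, Hsp90ab1 at 694 to 818 CPM and Hsp90aa1 at 369 to 543 CPM. The corepressor Ncor1 was at 279 to 340 CPM. Clock genes, which share several targets with the receptor, gave 0 calls by edgeR among 12 in each comparison. DESeq2 called 1 (Dbp, sEVHYP over sEVCTRL), beside 1.50% of all genes. Of 9 immediate early genes, which respond to handling of tissue, 2 were higher by edgeR for sEVHYP over sEVCTRL (Egr2 and Nr4a1). For sEVHYP over sEVNORM 1 was higher (Nr4a1), and for sEVNORM over sEVCTRL 2 were (Egr1 and Egr2). Beside the edgeR counts of these 3 lists, the shares of all genes called were 2.45%, 3.95% and 1.62%. DESeq2 called Egr2, then Egr1 and Nr4a1, then Egr1 and Egr2, beside 1.50%, 4.54% and 1.14% of all genes. Egr1 was lower with sEVHYP than with sEVNORM (edgeR log2 fold change -0.65, not called by edgeR). The immediate early genes named here and the genes named only for a DESeq2 call were chosen after their values were seen.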

How the data were processed

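Per the labels and the study's methods, alignment to mm10 used STAR, and RSEM 1.2.12 gave the authors' counts per Ensembl gene. The deposited values are whole-number counts per gene, not normalised. How the estimates were rounded is not given in the sources used here. Each of the 8 columns was matched to its sample by name, and 0 columns were left unused.

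Counts were tested in R 4.3.3 with edgeR 4.0.16 (filterByExpr at a minimum count of 10, TMM scaling, quasi-likelihood F-test, two-sided) in 1 model of the 3 groups, with 5 residual degrees of freedom, and adjusted by Benjamini-Hochberg over 17858 genes. The study tested 2 groups at a time with DESeq2, here an alternative (DESeq2 1.42.0). The members and gene lists were chosen with earlier results of these data known. Named genes of the 4 pathway lists are those with an unadjusted P under 0.05 and up to 4 more with the highest mean CPM; likeness is the Pearson correlation of log2 CPM (prior count 2). On simulated data the test gave an unadjusted P under 0.05 to 64.2% of the changed genes at a log2 fold change of 1 for sEVHYP against sEVNORM (17423 genes tested), and to 98.0% at 2 (17432 genes). The simulation gave every gene the same biological coefficient of variation, 0.297, and no differences in tissue content. These shares are therefore not detection rates for the members, whose spread differs from gene to gene. Replicate numbers showed no consistent pairing of the libraries (r of deviations from the group means -0.42 to 0.37 over 7 pairs), and no libraries were duplicates. This check cannot exclude a pairing, since the deviations of the 2 sEVHYP libraries are equal and opposite by construction. The n are separate samples per the labels, so P values measure the spread between these samples. Precision covers counting error and replicate spread only as far as 2 or 3 libraries show it. Alternatives were other size factors, filters, samples in the fit, a replicate block, a muscle covariate and each library left out, and those for called genes of the lists were added after seeing the data.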

Additional observations from a re-analysis of the deposited data

How the results depend on the processing

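Over 15 alternatives in 3 comparisons, 395 of 450 recomputed member values kept their sign and their side of the threshold, 37 changed sign, 0 of these with an unadjusted P under 0.05, 17 newly passed it and 1 no longer did. The count of members called for sEVHYP over sEVCTRL, 1 in the report, was 2 with no filter on low counts (Fkbp5 and Hsd11b1) and 0 to 4 when libraries were left out: 0 without sEVHYP replicate 1, and 4 without sEVCTRL replicate 2 (Fkbp5, Sgk1, Cdkn1a and Hsd11b1). For sEVHYP over sEVNORM, again 1, it was 2 with edgeR or DESeq2 on only the 2 groups compared (Fkbp5 and Tsc22d3), 3 with the muscle score as a covariate (Fkbp5, Zbtb16 and Mt2) and 1 to 3 when libraries were left out, with 3 without sEVCTRL replicate 2. For sEVNORM over sEVCTRL, 0 in the report, it was 1 with the muscle score (Fkbp5) and 0 to 1 when libraries were left out (Hsd11b1 without sEVCTRL replicate 2, Tsc22d3 without sEVCTRL replicate 3, Fkbp5 without sEVNORM replicate 2). The count of all genes called also moved. Without sEVCTRL replicate 2 (17701 genes tested) it was 1472 for sEVHYP over sEVCTRL, 986 for sEVHYP over sEVNORM and 1018 for sEVNORM over sEVCTRL. In the fit of all libraries these were 438, 706 and 290 of 17858. With no filter it was 672 of 27246 for sEVHYP over sEVCTRL. For sEVHYP over sEVNORM it was 1056 of 17403 with edgeR and 1195 of 26293 with DESeq2 on only those groups. With the muscle score it was 795 for sEVHYP over sEVNORM and 423 for sEVNORM over sEVCTRL, of 17858. For sEVNORM over sEVCTRL it was 237 of 17733 without sEVCTRL replicate 3 and 222 of 17672 without sEVNORM replicate 2.

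With the muscle score as a covariate the sign changed for Tsc22d3 (-0.10) and Klf9 (-0.12) over sEVCTRL, for Klf9 (-0.30) and Cdkn1a (-0.10) in sEVHYP over sEVNORM, and for Sgk1 (0.15), Klf9 (0.18) and Cdkn1a (0.28) in sEVNORM over sEVCTRL. Mt1 in sEVNORM over sEVCTRL, at 0.0054, was -0.0037 with DESeq2 size factors, and -0.0078 and -0.0069 with edgeR and DESeq2 on only those groups. Since the replicate numbers showed no consistent pairing, members are given with the replicate block only here: it left the member counts at 1, 1 and 0, put Fkbp5 at -0.65, -1.06 and 0.41, and changed the sign of Sgk1 (0.021) and Cdkn1a (0.024) in sEVNORM over sEVCTRL.

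When each library was left out in turn, the log2 fold change for sEVHYP over sEVCTRL ran from -0.14 to 0.32 for Tsc22d3, -0.58 to 0.54 for Klf9, -0.56 to 0.0085 for Mt1 and -2.34 to 0.11 for Zbtb16, and for sEVHYP over sEVNORM from -0.50 to 0.62 for Klf9. For sEVNORM over sEVCTRL it ran from -0.084 to 0.41 for Zbtb16, -0.21 to 0.28 for Mt1, -0.30 to 0.051 for Nr3c1, -0.21 to 0.34 for Sgk1, -0.42 to 0.17 for Klf9, -0.29 to 0.35 for Cdkn1a and -0.12 to 0.52 for Mt2. With 2 sEVHYP libraries, intervals of most members span about 1 or more on the log2 scale, and the causes of these changes were not tested.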
